A study of Mus musculus with 26 samples.

Results

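Peaks of open chromatin in D2 medium spiny neurons (MSNs) after acute cocaine were compared with those at baseline. The acute cocaine group (SC) has 1 library and the baseline group (SS) has 2, of 26 libraries in the whole series, and each group is represented by 1 list of peaks. The rule covered chromosomes 1 to 19 and X, which held 58790 peaks of the D2 SC list and 61796 of the D2 SS list, of 399299 peaks in all 8 lists of the series. A peak was shared when it overlapped a peak of the other list by at least 1 bp, and it was called SC-only or SS-only when every peak of the other list lay over 1 kb away. This gave 6266 SC-only peaks, 9245 SS-only peaks, and shared sites that held 51216 peaks of the SC list and 50761 of the SS list. Another 1308 SC peaks and 1790 SS peaks lay within 1 kb of a peak of the other list without touching it, and belong to none of the 3 sets.

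The assay was ATAC-seq, in which a transposase cuts and tags accessible DNA, applied to mouse nuclei labelled as D1 or D2 MSN. The labels name the tissue as brain, and the title of the study places it in the nucleus accumbens. The other 6 lists, used below to see where a peak recurs, come from D1 MSNs after acute cocaine (D1 SC, 4 libraries), after chronic cocaine and a long withdrawal (D1 CS, 4), in cocaine relapse (D1 CC, 4) and at baseline (D1 SS, 2), and from D2 MSNs in withdrawal (D2 CS, 8) and relapse (D2 CC, 1). Strain, sex, dose, the interval after the injection and the way nuclei were told apart are not given in the sources used here. Nothing in the labels says whether the 2 baseline libraries come from separate animals. With 1 list per group there is no replicate error: no test between SC and SS was possible, every difference below describes these lists, and each range in brackets is an exact 95% Clopper-Pearson interval, which takes in counting error alone.

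Medium spiny neurons are the inhibitory projection neurons of the striatum, and the D2 class carries the dopamine receptor Drd2, the adenosine receptor Adora2a and the enkephalin precursor Penk. Dopamine acting on D2 receptors lowers cAMP, opposite to its action on D1 receptors, and cocaine raises dopamine by blocking its reuptake. Open chromatin marks promoters, which are open in most cell types, and distal elements in introns and between genes, which differ more between cell types and states. A peak list records which sites passed the threshold of the peak caller, so a site that is missing from a list may still be open at a lower level.

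The D2 label was checked against its markers. Of 9 D2 MSN marker genes, 8 held a peak in both lists, and no peak was assigned to Gpr52 in either. Drd2 held 7 peaks over 3938 bp in D2 SC and 6 over 3992 bp in D2 SS, Adora2a 3 in each, and Penk 3 in D2 SC and 2 in D2 SS. Elsewhere Drd2 held 5 peaks in D2 CS and 10 in D2 CC, and fewer in D1 MSNs: 4 in the withdrawal list, 4 in the relapse list, 2 after acute cocaine and none at baseline. Markers of D1 MSNs were open too: 8 of 9 held a peak in D2 SC and 7 in D2 SS. They held 43 and 38 peaks, against 26 and 24 at the D2 markers. Drd1 had 2 peaks in D2 SC and 1 in D2 SS. An open site at these genes, or the count of markers with a peak, thus did not by itself separate the classes. In these bulk libraries, fewer cells with an open site and lower openness in each cell cannot be told apart. Of 59 markers of 6 other cell types (astrocytes, oligodendrocyte lineage, microglia, vascular cells, striatal interneurons and cortical excitatory neurons), 25 held a peak in SC and 32 in SS.

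The SC list was the shallower of the pair. The spacing of the authors' fold values, the enrichment of a peak over the caller's background, gave a background of 4.48 reads in SC and 6.14 in SS, and the lowest fold shared by many peaks was 2.92 in SC and 2.66 in SS. Folds are not scaled between lists and are read here within a list only. Outside the chromosomes, on patch scaffolds of the assembly, both lists held 7 peaks, as did D2 CC, and D1 SS held 4. The lists D2 CS, D1 SC, D1 CS and D1 CC held 70 to 137. The D2 SC and SS lists therefore stand on the same side of this split, and 4 of the other 6 lists stand on the other.

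The sites that set the lists apart are shown first through promoters, since a promoter sequence can be read for each annotated gene. The 7 windows below were chosen after their values were seen. Each runs from 250 bases before to 50 after a RefSeq transcription start in GRCm38.p6, the assembly that mm10 denotes, and has at least 150 bases under the named peak. Capitals mark a match on either strand to one of 6 motifs that were searched: AP-1 TGANTCA, bound by Fos and Jun proteins; CRE TGACGTCA, bound by CREB; EGR GCGTGGGCG, bound by the Egr factors; NBRE AAAGGTCA, bound by the Nr4a receptors; the MEF2 consensus; and the E-box CAGCTG. A match describes the letters of the window and is not evidence of binding.

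The 3 SC-only windows lie at Gripap1 (chrX:7789743-7790042, plus strand), whose protein takes part in AMPA receptor recycling, at Hydin (chr8:110266727-110267026, plus strand), a gene of motile cilia, and at Hrh1 (chr6:114458272-114458571, plus strand), the histamine H1 receptor. Gripap1 and Hydin were among the 3 SC-only windows of highest fold in that ranking, at 5.14 and 4.74. Hrh1 (fold 3.89) is shown with Hydin for its AP-1 match. The Gripap1 window holds an NBRE match, read on the opposite strand as TGACCTTT.
Gripap1: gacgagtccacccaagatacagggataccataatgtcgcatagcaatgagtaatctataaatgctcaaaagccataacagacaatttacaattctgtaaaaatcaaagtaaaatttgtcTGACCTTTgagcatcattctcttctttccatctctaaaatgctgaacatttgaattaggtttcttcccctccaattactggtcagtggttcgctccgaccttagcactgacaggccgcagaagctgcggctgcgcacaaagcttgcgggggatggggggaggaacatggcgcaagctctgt
Hydin: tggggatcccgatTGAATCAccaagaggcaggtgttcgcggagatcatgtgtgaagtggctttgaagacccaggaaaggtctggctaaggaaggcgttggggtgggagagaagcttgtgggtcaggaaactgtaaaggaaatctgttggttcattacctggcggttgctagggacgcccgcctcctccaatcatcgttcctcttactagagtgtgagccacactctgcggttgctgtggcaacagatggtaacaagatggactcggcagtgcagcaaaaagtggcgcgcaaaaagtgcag
Hrh1: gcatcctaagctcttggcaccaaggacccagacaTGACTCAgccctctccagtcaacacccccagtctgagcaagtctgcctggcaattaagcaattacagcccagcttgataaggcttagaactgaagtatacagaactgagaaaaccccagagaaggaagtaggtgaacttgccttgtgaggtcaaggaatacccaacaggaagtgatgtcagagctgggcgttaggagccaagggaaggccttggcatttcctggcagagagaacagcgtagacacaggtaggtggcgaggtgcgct

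The 4 SS-only windows lie at the upstream start of Nr4a2 (chr2:57123954-57124253, minus strand), an orphan nuclear receptor of the immediate-early class, at Kcnj6 (chr16:94997647-94997946, minus strand), a potassium channel subunit opened by G proteins, at Per1 (chr11:69099902-69100201, plus strand), a clock gene, and at Elf1 (chr14:79515424-79515723, plus strand), an ETS transcription factor. Nr4a2 had the highest fold of the SS-only windows ranked, 6.02. Elf1 (fold 3.78) is the strongest of the ranked SS-only windows with an AP-1 match. Kcnj6 (3.501) and Per1 (3.20) belong to gene lists used below, and neither they nor Nr4a2 matched any of the 6 motifs.
Nr4a2: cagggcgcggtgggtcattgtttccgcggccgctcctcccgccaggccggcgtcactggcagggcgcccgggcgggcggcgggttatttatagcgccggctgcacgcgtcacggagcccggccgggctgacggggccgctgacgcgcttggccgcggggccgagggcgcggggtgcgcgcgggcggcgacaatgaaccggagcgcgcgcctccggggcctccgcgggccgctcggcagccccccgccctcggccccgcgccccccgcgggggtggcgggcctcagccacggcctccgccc
Kcnj6: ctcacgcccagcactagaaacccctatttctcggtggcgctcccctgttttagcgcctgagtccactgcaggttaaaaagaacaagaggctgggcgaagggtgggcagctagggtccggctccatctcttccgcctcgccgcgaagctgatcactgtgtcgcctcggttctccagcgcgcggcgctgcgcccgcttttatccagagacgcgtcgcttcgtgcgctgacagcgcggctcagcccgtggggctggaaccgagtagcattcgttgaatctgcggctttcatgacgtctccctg
Per1: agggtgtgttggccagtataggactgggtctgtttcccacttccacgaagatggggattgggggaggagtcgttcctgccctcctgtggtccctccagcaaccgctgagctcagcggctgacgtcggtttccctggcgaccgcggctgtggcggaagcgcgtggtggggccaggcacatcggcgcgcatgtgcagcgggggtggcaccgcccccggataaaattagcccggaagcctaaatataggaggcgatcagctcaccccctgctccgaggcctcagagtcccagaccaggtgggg
Elf1: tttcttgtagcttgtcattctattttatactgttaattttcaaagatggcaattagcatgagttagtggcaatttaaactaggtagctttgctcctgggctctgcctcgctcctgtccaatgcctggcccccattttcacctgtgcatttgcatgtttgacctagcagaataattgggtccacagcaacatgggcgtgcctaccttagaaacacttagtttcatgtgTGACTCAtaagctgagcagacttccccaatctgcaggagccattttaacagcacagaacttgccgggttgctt

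The windows differ in base composition. The Nr4a2 window is 81.7% G or C with 52 CpG dinucleotides, the Kcnj6 window 62% with 30, the Per1 window 64.7% with 21, and the Elf1 window 44.7% with 3. The Gripap1 window is 45% G or C with 9 CpGs, the Hydin window 53.3% with 12, and the Hrh1 window 52.3% with 4, while the SC-only window at Gon4l, of fold 5.07, is 59.3% with 23. Over all windows of each kind, the median G and C content was 54% in the 86 SC-only windows, 61.3% in the 257 SS-only windows, 63% in the 10632 shared windows and 48.3% in the 19784 windows without a D2 SC or SS peak. The median number of CpGs was 10, 17, 24 and 4 in the same order.

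AP-1 matches were more frequent in the SC-only windows than in any other kind. They were present in 18.6% of SC-only windows (16 of 86, 11.0 to 28.4%), in 5.06% of SS-only windows (13 of 257, 2.72 to 8.49%), in 4.19% of shared windows and in 10.1% of windows without a peak, against 7.85% of all 32585 windows. Among windows of 45 to 60% G and C, the shares were 29.2% of SC-only (14 of 48, 17.0 to 44.1%), 7.22% of SS-only (7 of 97, 2.95 to 14.3%), 6.15% of shared windows and 9.42% of windows without a peak. NBRE matches lay in 4 of 86 SC-only windows and in 0 of 257 SS-only windows, against 0.715% of shared windows, 2.00% of those without a peak and 1.52% of all. CRE matches lay in 2 of 86 SC-only and 4 of 257 SS-only windows, against 3.78% of shared and 1.80% of all windows. E-boxes lay in 16.3% of SC-only, 12.8% of SS-only, 14.4% of shared and 16.4% of all windows. EGR matches lay in 0 of 86 SC-only and 5 of 257 SS-only windows, against 1.35% of shared and 0.617% of all windows. MEF2 matches lay in 0 of 86 SC-only and 0 of 257 SS-only windows, and in 0.166% of all windows. The SC-only windows are few, and the distal peaks that make up most of both sets were not searched. Only windows of identical position were merged, so overlapping windows under the same peak may count a match again. The intervals treat windows as independent and may be too narrow.

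Most open sites were found in both lists. Of the SC peaks, 87.1% (86.8 to 87.4%) overlapped an SS peak and 10.7% (10.4 to 10.9%) were SC-only, and of the SS peaks, 82.1% (81.8 to 82.4%) overlapped an SC peak and 15.0% (14.7 to 15.2%) were SS-only. In bases, SC-only peaks covered 6.03% of the SC list and SS-only peaks 8.65% of the SS list. A cut at a fold of at least 4 in the own list kept 42123 SC and 37131 SS peaks. Searched in the whole other list, these held 1872 SC-only and 961 SS-only peaks. Folds are not scaled between lists, so this cut falls at unlike strengths and does not rank the counts. By rank within each list, the 5 strongest deciles held 244 SC-only and 297 SS-only peaks. At equal list length the counts were 7132 SC-only and 7457 SS-only peaks.

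Peaks of a single list were weak and narrow. The median fold was 3.65 for SC-only peaks against 5.11 for shared peaks in the SC list, and 3.28 for SS-only peaks against 4.80 for shared peaks in the SS list. The highest fold was 6.20 among SC-only and 7.14 among SS-only peaks, where the lists reach 17.9 and 17.1. The median width was 258 bp for SC-only and 280 bp for SS-only peaks, against 575 bp and 591 bp for the shared peaks of the SC and SS lists. Widths under 300 bp made up 59.8% of SC-only and 53.9% of SS-only peaks, and 15.3% and 12.1% of the shared peaks of the SC and SS lists. The 1308 SC and 1790 SS peaks within 1 kb of the other list were of similar strength and narrower still, with median folds of 3.57 and 3.22 and median widths of 222 and 234 bp.

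The strong sites of D2 MSNs were nearly all shared. In the 5 strongest deciles of the SC list by fold, 99.0% of peaks were shared and 244 of 29395 were SC-only. In the 5 strongest deciles of the SS list, 98.8% were shared and 297 of 30898 were SS-only. Every peak in the top 2 deciles of the SC list was shared, and 3 SS-only peaks lay in the top 2 deciles of the SS list. In the weakest decile, 59.4% of SC peaks and 42.8% of SS peaks were shared.

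**Figure D1:**
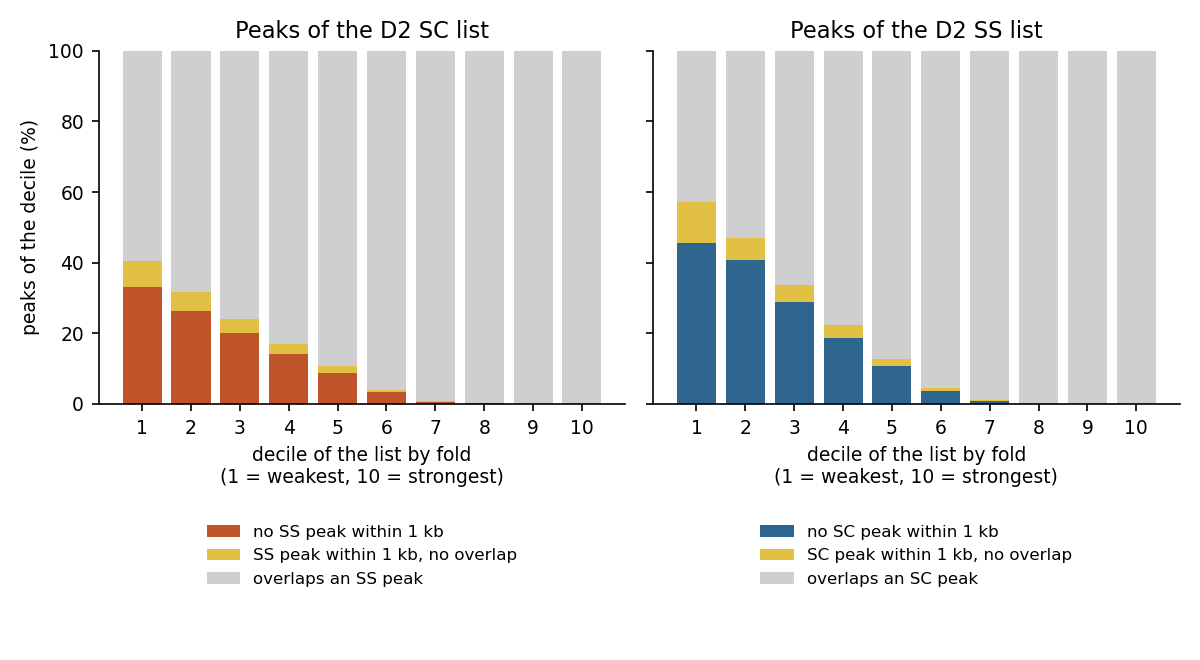
Peaks of the D2 SC list (left) and of the D2 SS list (right), divided by fold into deciles from weakest to strongest; each bar gives the percentage of peaks that lie over 1 kb from the other list, within 1 kb of it, or overlap it. SC-only peaks made up 33.0% of the weakest decile of SC and SS-only peaks 45.7% of the weakest decile of SS, and both shares were under 1% from the 7th decile upward.

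Among shared peaks that are assigned to a gene, the strongest lay at promoters; the highest fold of any shared SC peak, 17.9, was at an intergenic site. The 6 genes with the strongest shared peaks in SC had them within 250 bp of the starts of AC124732.1 (fold 15.1), the ubiquitin ligase gene Siah1b (15.0), the growth factor gene Egf (14.7), 9430037G07Rik (14.5), Gm28551 (14.2) and the chromatin remodeller gene Chd1l (14.2). All 6 peaks were present in all 6 other lists.

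The authors assign each peak to a class by its distance from a transcription start: within 250 bp (proximal promoter), up to 1 kb, up to 3 kb, gene body or intergenic. SC-only peaks lay in promoter classes in 14.4% of cases (13.5 to 15.3%), in gene bodies in 47.5% and between genes in 38.1%. SS-only peaks lay in promoter classes in 19.5%, in gene bodies in 45.6% and between genes in 34.9%. Of the shared SC peaks, 33.6% were in promoter classes, 34.5% in gene bodies and 31.9% between genes. The proximal promoter differed most between the sets, with 3.85% of SC-only peaks (241), 6.90% of SS-only peaks (638) and 22.2% of shared peaks.

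**Figure D2:**
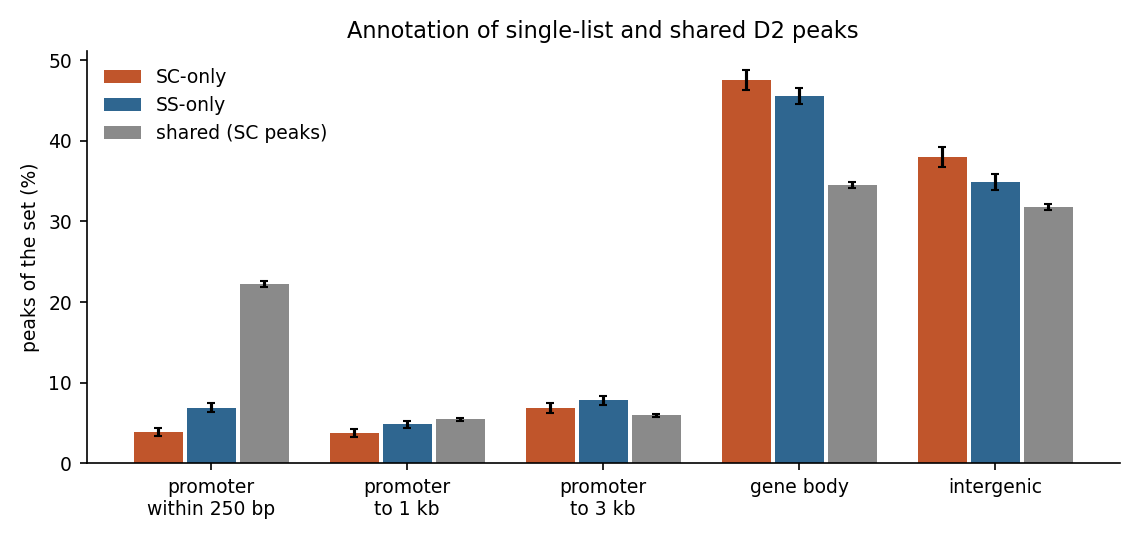
Percentage of SC-only, SS-only and shared D2 peaks in each annotation class, with exact 95% intervals; shared peaks are those of the SC list. Proximal promoters hold 3.85% of SC-only, 6.90% of SS-only and 22.2% of shared peaks, while gene bodies hold 47.5% of SC-only and 45.6% of SS-only peaks.

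Seen from each class, single-list peaks were rarest at starts. Of the proximal promoter peaks, 2.05% of those in SC were SC-only and 5.27% of those in SS were SS-only. Over all promoter classes the shares were 4.88% and 9.29%. They were 14.1% of SC and 18.8% of SS peaks in gene bodies, and 12.5% of SC and 16.2% of SS peaks in the intergenic class. The same contrast held among peaks of like strength. At folds of 4 to 4.5, promoter classes held 11.1% of SC-only peaks and 24.6% of shared peaks of the SC list, and 14.8% of SS-only peaks and 23.2% of shared peaks of the SS list.

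Distances to the start of the assigned gene followed the classes. The median distance was 24716 bp for the 3879 SC-only peaks that have one, 17200 bp for the 6019 SS-only peaks and 3495 bp for shared SC peaks. Within gene bodies alone the medians were closer, 43631 bp for SC-only, 38729 bp for SS-only and 43714 bp for shared peaks, and the genes that hold these peaks had median lengths of 116, 104 and 115 kb. Among promoter peaks, the median distance was 931.5 bp for SC-only, 611 bp for SS-only and 111 bp for shared peaks. Upstream positions made up 47.9% of SC-only, 46.8% of SS-only and 50.8% of shared promoter peaks.

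The single-list shares varied little between autosomes. SC-only peaks made up 9.13 to 12.3% of the SC peaks of an autosome (median 10.3%) and 11.1% of those on X. SS-only peaks made up 12.8 to 17.5% of the SS peaks of an autosome (median 15.1%) and 10.4% of those on X, below every autosome. X was the only one of the 20 chromosomes with more peaks in SC (1598) than in SS (1586).

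Many single-list peaks recurred in another group, chiefly in the relapse lists. A peak of at least 1 of the other 6 lists overlapped 72.9% of SC-only peaks, 75.1% of SS-only peaks and 98.7% of shared peaks. D2 CC held 55.7% of SC-only, 53.9% of SS-only and 96.7% of shared peaks, and D1 CC held 46.9%, 54.0% and 89.1%. These are the longest lists, with 68424 and 77070 peaks. Without them, the share found in at least 1 list was 18.7% of SC-only, 28.9% of SS-only and 75.6% of shared peaks, an alternative chosen after seeing the data.

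SS-only peaks were found more often than SC-only peaks in 5 of the 6 lists, D2 CC being the exception. D1 CS held 15.5% of SC-only and 25.1% of SS-only peaks, D1 SC 3.19% and 6.13%, D1 SS 2.63% and 3.36%, and D2 CS 2.67% and 4.99%. The acute cocaine list of D1 MSNs thus held a smaller share of the SC-only than of the SS-only peaks. In D1 SC but not in D1 SS were 182 SC-only peaks (2.90%) and 506 SS-only peaks (5.47%), while 147 SC-only (2.35%) and 250 SS-only peaks (2.70%) were in D1 SS but not in D1 SC. D1 SC and D1 SS lie on different sides of the patch scaffold split, so its part in these counts cannot be told apart from that of the state.

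**Figure D3:**
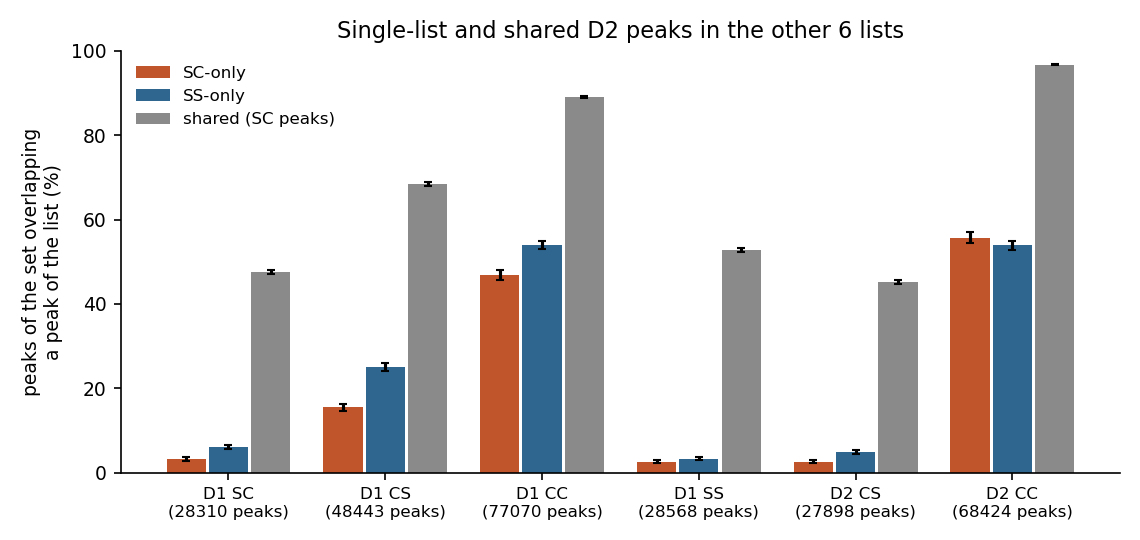
Percentage of SC-only, SS-only and shared D2 peaks that overlap a peak of each of the other 6 lists, with exact 95% intervals and the number of peaks of each list. D2 CC holds 55.7% of SC-only and 53.9% of SS-only peaks, and the shorter lists D1 SC, D1 SS and D2 CS hold under 7% of either set.

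Peaks in no other list numbered 1697 (27.1%) among SC-only, 2299 (24.9%) among SS-only and 655 (1.28%) among shared peaks. Peaks in all 6 other lists numbered 4 among SC-only, 18 among SS-only and 17293 among shared peaks. In D2 CC alone were 23.6% of SC-only and 17.8% of SS-only peaks, and in no D1 list 50.8% of SC-only, 42.9% of SS-only and 9.49% of shared peaks. Recurrence went with the class. Promoter classes made up 10.6% of SC-only peaks found in no other list, 14.8% of those in 1 to 3 and 36.8% of those in 4 to 6 lists. For SS-only peaks the shares were 13.8%, 19.3% and 44.1%.

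Among SC-only peaks assigned to a gene, the highest fold was 6.20 at Npepps (chr11:97207100-97207403), a cytosolic aminopeptidase gene, 5211 bp from the start. Adgrv1, an adhesion receptor gene, Csmd1, a gene of the complement-regulating CUB and Sushi family, and A330033J07Rik followed at 6.02. Peaks of fold 5.84 lay in the semaphorin gene Sema3a (chr5:13415639-13416218), the contactin gene Cntn4 (chr6:106377261-106377783), the AMPA receptor gene Gria3 (chrX:41447701-41448192), Gm17173, and at the start of the olfactory receptor gene Olfr1137 (chr2:87712875-87713411). A peak in Chsy3, a chondroitin synthase gene, had fold 5.65. Of these 10 peaks, 1 was a promoter peak, and all 10 were present in D1 CC, D2 CC or both.

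Among SS-only peaks assigned to a gene, the highest fold was 6.30 in B530045E10Rik (chr10:99350403-99350973), followed by the upstream Nr4a2 start at 6.02. Promoter peaks also lay at Psd4 (chr2:24405514-24405829, fold 5.56), which encodes an exchange factor for Arf6, at H60b (5.46), a ligand gene of the natural killer receptor NKG2D, at 4930562F17Rik (5.32), at Ddx58 (5.32), which encodes the RNA sensor RIG-I, and at Ighmbp2 (chr19:3282742-3283231, fold 5.18), a helicase gene. Gene bodies with strong SS-only peaks were those of 4930511M06Rik (5.88), the cGMP kinase gene Prkg1 (5.46), Thsd7a (5.46) and Hgd (5.32), an enzyme of tyrosine breakdown. The Ighmbp2 and Hgd peaks were in every other list except D1 SS, and the Thsd7a peak was in none.

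Strong SC-only promoter peaks, apart from Olfr1137, lay at Gm22761 (fold 5.50), Gm24185 (5.47), Gm13277 (5.29), Gm11873 (5.23) and the acyl-CoA thioesterase gene Them5 (5.20), none of them within the gene lists below. SC-only peaks found in no other list reached fold 5.11 in Pld5 and in Nkain2, 5.00 in Slc44a5, and 4.92 in Anks1b, Epha6 and Scn7a. SS-only peaks found in no other list reached 5.46 in Thsd7a, 4.90 in Lpp, 4.76 in C130071C03Rik, 4.72 in the GABA-A receptor gene Gabrg3, and 4.62 in Slc35f1 and at AY702103. Between genes, and with the distance to the nearest protein-coding gene in RefSeq, the strongest SC-only peaks had folds of 6.12 (15.0 kb from Cga), 6.02 (588 kb from Igfbp3) and 6.02 (51.6 kb from Itgb8). The first lay 1.08 kb from the nearest SS peak, just past the limit of the rule. The strongest intergenic SS-only peaks had folds of 7.14 (1.63 kb from Gm40363), 7.09 (31.9 kb from Eea1) and 6.58 (54.8 kb from Uchl5), and the first and second were each in 5 of the other 6 lists.

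By gene, an SC-only peak was assigned to 2773 of the 17848 genes named in either list (15.5%) and an SS-only peak to 4031 (22.6%). Both kinds were assigned to 1064 genes, which are 38.4% of the genes with an SC-only and 26.4% of those with an SS-only peak. A shared peak was assigned as well to 76.5% of the genes with an SC-only peak and to 71.0% of those with an SS-only peak. An SC-only promoter peak lay at 872 genes, 501 of which had no SS promoter peak at all, and an SS-only promoter peak at 1668 genes, 978 of which had no SC promoter peak. Counting all peaks, 2804 genes (15.7%) held more in SC, 4129 (23.1%) fewer in SC, and 10915 the same number.

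The genes with the most SC-only peaks were the neurexin gene Nrxn3 with 15, the teneurin gene Tenm2 with 11, the netrin-G ligand gene Lrrc4c and the scaffold gene Magi2 with 10 each, Ccser1 with 9, and Cntn4, Nav3 and the kinase gene Prkce with 8 each. The first 4 encode proteins of the synapse, as does Dlgap2 among the genes with the most SS-only peaks, so synaptic genes were not particular to SC-only peaks. Those with the most SS-only peaks were Lsamp with 15, a gene of a limbic cell surface protein, then the ankyrin gene Ank3, Gm20388 and Macrod2 with 10 each, and the catenin gene Ctnnd2, Dab1, the postsynaptic scaffold gene Dlgap2 and Enox1 with 9 each. These are large genes with many peaks in both lists: Nrxn3 held 48 in SC and 42 in SS, and Lsamp held 33 in SC and 43 in SS. Every one of these 16 genes except Prkce had more single-list peaks on the side for which it is named than on the other, as the choice by count favours; Prkce had 8 SC-only and 8 SS-only.

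Markers of other cell types held single-list peaks as well. Of the 56 SC peaks at these 59 genes, 4 were SC-only (7.14%), against 10.7% over all SC peaks. Of the 67 SS peaks 15 were SS-only (22.4%), against 15.0% over all SS peaks. These counts are small, and whether they differ from the shares over all peaks was not tested. The astrocyte genes Aldh1l1, S100b and Sox9 held 0, 0 and 0 peaks in SC and 1, 2 and 1 in SS, all SS-only. Olig2 of the oligodendrocyte lineage, the vascular genes Kdr and Pdgfrb, and Calb2 of interneurons each held 0 in SC and 1 in SS, and the cortical gene Tbr1 held 0 and 2. In the other direction, Cdh5 of vascular cells and Cspg4 of the oligodendrocyte lineage each held 1 SC-only peak and no SS peak, and Pecam1 and Kit each held 2 peaks in SC and 1 in SS, all shared. Nos1 held 1 SC-only and 1 SS-only peak, and Csf1r of microglia 1 in each, neither shared. The defining markers Gfap, Aqp4, Mog, Cx3cr1, Cldn5, Sst and Pvalb held no peak in either list. The part of other cells in the SS-only peaks was not tested.

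The rapid immediate-early genes, transcribed within minutes of neuronal activity, held promoter peaks alone. Peaks were assigned to 14 of 16. Of 22 peaks in SC, 1 was SC-only (4.55%, 0.115 to 22.8%), and of 26 in SS, 2 were SS-only (7.69%, 0.946 to 25.1%). Over all promoter peaks the shares were 4.88% SC-only and 9.29% SS-only. The class lay near its background, but its peaks are too few to show a difference. Fos held 2 peaks over 1045 bp in SC and 2 over 803 bp in SS, Fosb 2 and 2, Junb 3 and 3, and Nr4a1 1 and 1, and all of these were shared. Arc held 1 peak in SC and 2 in SS, and Npas4 1 in SC and 3 in SS, with no SC-only or SS-only peak at either. The SC-only peak lay at -137 bp from a start of Egr3 (chr14:70078472-70078733, fold 2.54), a zinc finger factor gene whose other 2 SC peaks were shared.

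Both SS-only peaks of this class belonged to Nr4a2. The peak over its upstream start, whose sequence is given above, spanned 922 bp (chr2:57123528-57124449, fold 6.02), and a second lay at -1790 bp from the downstream start (chr2:57116640-57117016, fold 2.86). The downstream start itself held a shared peak, of fold 5.39 over 653 bp in SC and 3.71 over 964 bp in SS. The bases under Nr4a2 peaks were 653 in SC and 2263 in SS. The upstream peak was also in D2 CS (fold 5.59), D2 CC (3.79), D1 CS (5.34) and D1 CC (4.78), and was in neither D1 SC nor D1 SS, where the downstream start held the gene's single peak. Its absence was thus common to D2 SC, D1 SC and the D1 baseline list.

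**Figure D4:**
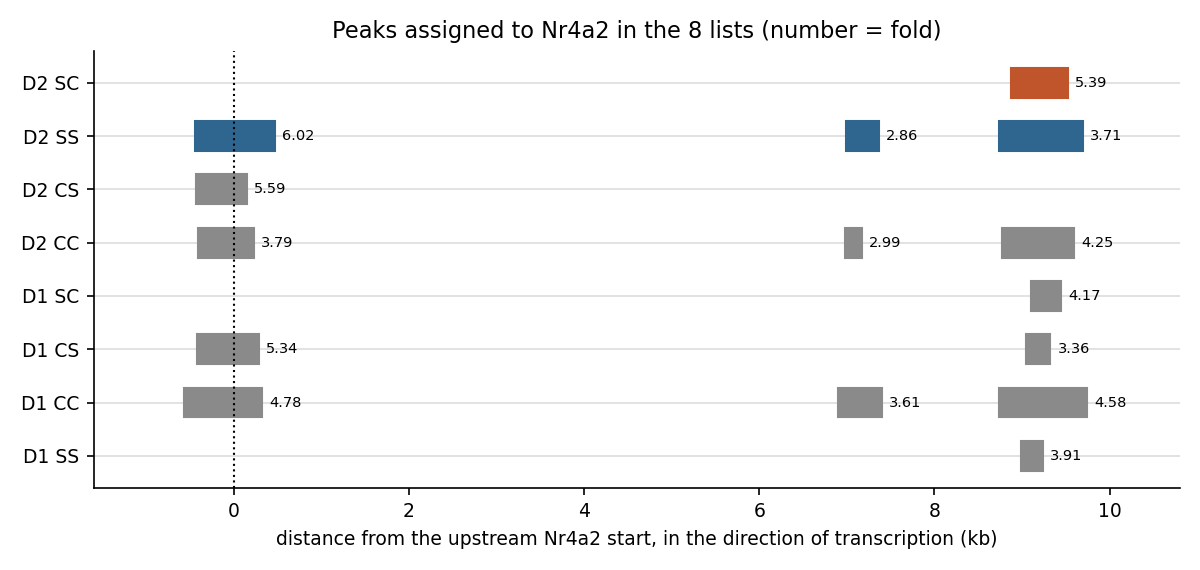
Peaks assigned to Nr4a2 in the 8 lists, placed by distance in kb from its upstream start along the direction of transcription; each box is a peak and the number its fold in its own list. Over the upstream start, D2 SC has no peak and D2 SS has one of fold 6.02, and D1 SC and D1 SS have none either.

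Delayed activity-regulated genes held 29 peaks in SC, 1 of them SC-only (3.45%, 0.0873 to 17.8%), and 33 in SS, 3 of them SS-only (9.09%, 1.92 to 24.3%). Both intervals hold the shares over all peaks (10.7% and 15.0%) and over all promoter peaks (4.88% and 9.29%). These peaks are too few to place the class against either background. Bdnf, the neurotrophin gene, held 2 peaks over 1170 bp in SC and 5 over 2313 bp in SS. Its strongest peak was shared (fold 6.88 in SC and 7.20 in SS, within 250 bp of a start), as was a gene-body peak. The SS-only peaks of Bdnf lay at -584 bp from a start (chr2:109673860-109674372, fold 3.08) and at 1305 bp from one (chr2:109678144-109678531, fold 3.08). Per1 held a shared promoter peak (fold 5.25 in SC and 6.05 in SS) and an SS-only peak at a second start (fold 3.20). The SC-only peak lay in the body of Homer1, a postsynaptic scaffold gene (fold 3.42). Its promoter peak was shared, with fold 7.94 in SC and 7.498 in SS.

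Peaks at the markers of the MSN classes were mostly shared. At Drd2, 5 peaks were shared, 2 gene-body peaks were SC-only (folds 1.87 and 2.26) and 1 was SS-only (2.11), all 3 weak for their lists. Both Adora2a promoters held shared peaks, and an SS-only peak of fold 2.35 lay 16721 bp into the gene. Penk, Gpr6, Sp9, Six3 and Oprd1 held no SC-only or SS-only peak. Over the 9 D2 markers, 4 of 26 SC peaks were SC-only (4.36 to 34.9%) and 3 of 24 SS peaks SS-only (2.66 to 32.4%). Over the 9 D1 markers the counts were 4 of 43 (2.59 to 22.1%) and 4 of 38 (2.94 to 24.8%). These intervals hold the shares over all SC and SS peaks, 10.7% and 15.0%. Pdyn, the dynorphin precursor of D1 MSNs, held 1 SC-only peak (fold 3.65, in no other list) and no peak in SS. Genes shared by both MSN classes, such as Foxp1 and Meis2, had 18.6% of 113 SC peaks SC-only (11.9 to 27.0%) and 19.7% of 117 SS peaks SS-only (12.9 to 28.0%). Most of these peaks lay in gene bodies. There, 22.2% of 90 SC peaks were SC-only (14.13 to 32.2%) against 14.05% over all genes. Of 87 SS peaks in their gene bodies, 20.7% were SS-only (12.7 to 30.7%) against 18.8%. Of 14 peaks each in 12 housekeeping genes, 0 were SC-only and 0 SS-only, which by the exact interval allows a share of up to 23.2%.

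Among genes of synaptic function the direction differed by list. Synaptic adhesion genes held 601 peaks in SC and 562 in SS, while the whole SC list was the shorter. SC-only were 15.0% of their SC peaks (90, 12.2 to 18.1%) against 10.7% over all SC peaks, and SS-only were 10.5% of their SS peaks (59, 8.09 to 13.3%) against 15.0% over all. Most of these peaks lay in gene bodies, where all SC peaks were 14.1% SC-only and all SS peaks 18.8% SS-only. Among the gene-body peaks of adhesion genes alone, a restriction chosen after seeing the data, 16.4% of 538 were SC-only (13.3 to 19.8%), an interval that holds the 14.1%, and 11.2% of 501 were SS-only (8.55 to 14.3%), below the 18.8%. More peaks in SC were held by 13 of the 27 genes, and fewer by 8, against 15.7% and 23.1% of all genes. The median was 21 SC peaks per adhesion gene and 1 over all genes, so these counts are not on a like basis. The teneurin gene Tenm4 held 27 peaks in SC and 22 in SS, with 5 SC-only and 0 SS-only, and Cntn5 33 and 27, with 5 and 1. Ptprd, a receptor phosphatase of the presynapse, held 52 and 45, with 7 and 2. Lrrtm3, a postsynaptic partner of neurexins, ran the other way with 11 and 14, 0 SC-only and 3 SS-only. An earlier comparison of these lists had already shown more coverage of such genes in SC, so their count is no independent evidence.

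Glutamate receptor genes held 274 peaks in SC and 269 in SS. SC-only were 17.5% of SC peaks (48, 13.2 to 22.6%) against 10.7% over all SC peaks. SS-only were 14.5% of SS peaks (39, 10.5 to 19.3%) against 15.0% over all SS peaks. Within gene bodies, 19.7% of 238 SC peaks were SC-only (14.9 to 25.4%) against 14.1% over all genes, and 16.2% of 234 SS peaks SS-only (11.8 to 21.6%) against 18.8%. Gria3, the AMPA receptor subunit on X, held 12 peaks in SC and 6 in SS, 6 of them SC-only and 1 SS-only. The delta receptor gene Grid1 held 34 in SC and 30 in SS, with 6 SC-only and 1 SS-only. Grin2b, an NMDA receptor subunit, held 16 in SC and 21 in SS, with 2 SC-only and 7 SS-only, and Gria1 held 14 and 18, with 1 and 4. GABA-A receptor genes held 82 peaks in SC and 77 in SS. Of these, 15.9% were SC-only (8.72 to 25.6%) and 11.7% SS-only (5.49 to 21.0%). Both intervals hold the shares over all peaks, 10.7% and 15.0%. In their gene bodies the shares were 21.7% of 60 (12.1 to 34.2%) and 16.4% of 55 (7.77 to 28.8%). Those intervals hold the 14.1% and 18.8% of all genes. Gabrb2 had 13 peaks in SC and 10 in SS, with 5 SC-only and 2 SS-only.

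Voltage-gated calcium and sodium channel genes had the highest SS-only share of the lists with 100 or more SS peaks. They held 185 peaks in SC and 215 in SS, and 9.73% of SC peaks were SC-only (18, 5.87 to 15.0%) while 21.4% of SS peaks were SS-only (46, 16.1 to 27.5%). Within gene bodies, 9.93% of 141 SC peaks were SC-only (5.54 to 16.1%), an interval that holds the 14.1% of all genes, and 25.6% of 168 SS peaks SS-only (19.2 to 32.9%), whose lower bound is just above the 18.8%. Cacna1c, an L-type calcium channel, held 17 peaks in SC and 25 in SS, with 2 SC-only and 8 SS-only. Its paralogue Cacna1d held 10 and 16, with 0 and 5, the R-type channel gene Cacna1e 28 and 35, with 0 and 7, and the auxiliary subunit gene Cacnb2 13 and 18, with 1 and 6. The sodium channel gene Scn8a held 6 and 10, with 0 and 4, whereas Scn2a held 9 and 7, with 2 and 0, and the N-type channel gene Cacna1b 7 and 4, with 3 and 0.

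Dopamine and cAMP signalling genes held 199 peaks in SC and 221 in SS. SC-only were 7.54% of SC peaks (15, 4.28 to 12.1%) and SS-only 16.3% of SS peaks (36, 11.7 to 21.8%). These intervals hold the 10.7% and 15.0% over all peaks. Within gene bodies, 9.15% of 153 SC peaks were SC-only (5.09 to 14.9%) and 17.4% of 172 SS peaks SS-only (12.1 to 24.0%). Those intervals hold the 14.1% and 18.8% of all genes. Of the 18 genes, 11 held fewer peaks in SC and 2 more, against 23.1% and 15.7% of all genes, whose median was 1 peak. The cAMP phosphodiesterase gene Pde4d held 46 and 50, with 1 SC-only and 8 SS-only. The striatal phosphodiesterase gene Pde10a held 14 and 18, with 1 and 5, and Pde7b 14 and 19, with 0 and 3. Ppp1r1b, which encodes the dopamine-regulated phosphoprotein DARPP-32, held 1 and 2, the SS-only peak lying at -1944 bp from the start (fold 2.56). Adcy5, the main adenylyl cyclase of the striatum, held 8 and 7, with 4 SC-only and 2 SS-only.

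For the remaining lists, the shares over all peaks were 10.7% SC-only and 15.0% SS-only. Potassium channel genes had 10.7% of 270 SC peaks SC-only and 15.4% of 285 SS peaks SS-only. Kcnip1 held 13 peaks in SC and 18 in SS, with 1 and 6. Axon guidance genes had 14.4% of 306 SC peaks SC-only (10.6 to 18.8%) and 16.6% of 307 SS peaks SS-only (12.6 to 21.3%). In their gene bodies the shares were 16.7% of 257 (12.4 to 21.9%) and 18.6% of 258 (14.0 to 23.9%). Those intervals hold the 14.1% and 18.8% over all gene-body peaks. The semaphorin genes Sema3c and Sema3d held 9 and 6 peaks in SC and 5 and 3 in SS, with 4 and 3 SC-only and no SS-only peak. Ntn1, the netrin gene, held 1 in SC and 4 in SS, with 3 SS-only. Chromatin regulator genes had 10.3% of 78 SC peaks SC-only and 16.7% of 84 SS peaks SS-only.

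**Figure D5:**
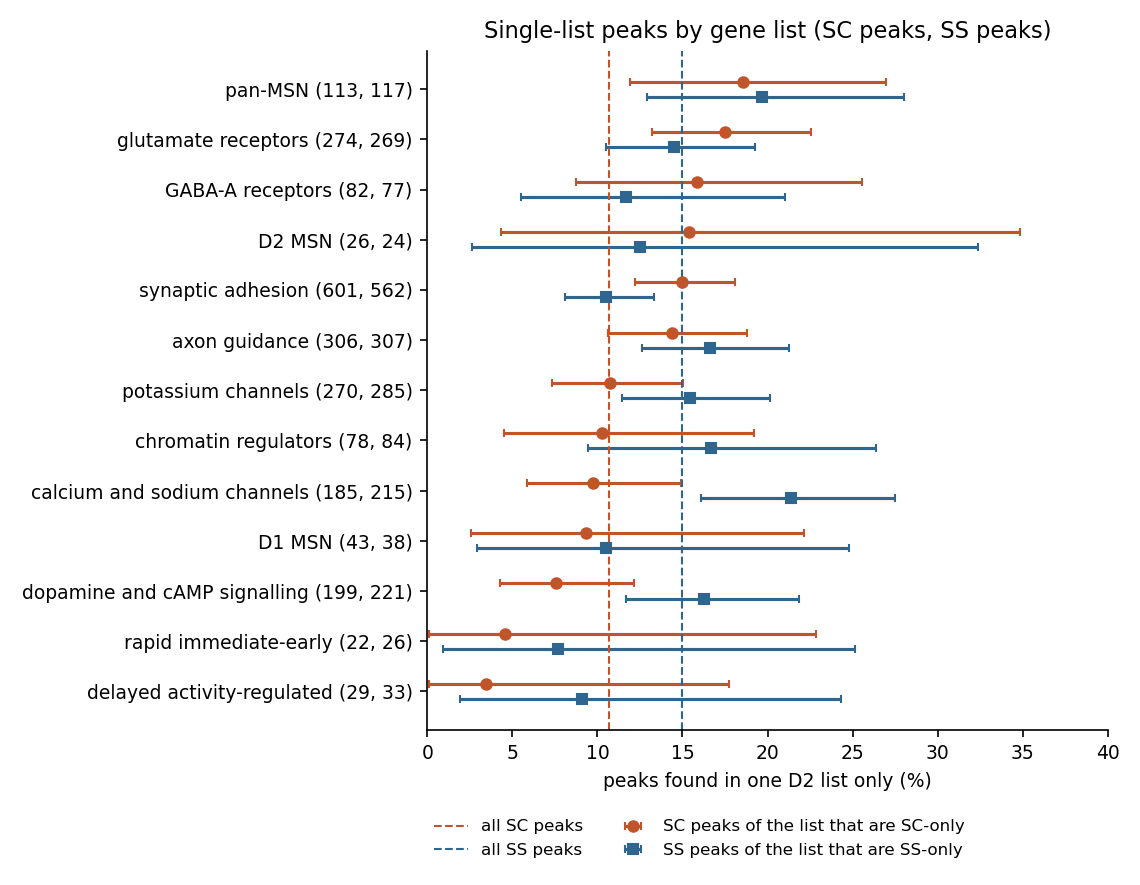
For each gene list with at least 20 peaks in both D2 lists, the percentage of its SC peaks that are SC-only (circles) and of its SS peaks that are SS-only (squares), with exact 95% intervals; dashed lines give 10.7% for all SC peaks and 15.0% for all SS peaks, and brackets the numbers of SC and SS peaks. Synaptic adhesion genes stand at 15.0% SC-only and 10.5% SS-only, calcium and sodium channel genes at 9.73% and 21.4%.

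With a fold of at least 4, SC-only peaks were 4.44% of all SC peaks and SS-only peaks 2.59% of all SS peaks. Adhesion genes then had 24 SC-only (5.85%) and 6 SS-only peaks (1.77%), and glutamate receptor genes 17 (10.1%) and 3 (2.24%). Calcium and sodium channel genes had 2 SC-only (2.11%) and 7 SS-only peaks (7.69%). Gene-body peaks, which make up most of these 3 lists, were not compared alone at this fold. The glutamate SS-only share rests on 3 peaks and lay close to the 2.59%. With these limits, the 3 groups lay on the same side of the shares over all peaks as before. Other groups did not, most of them with few peaks. The SS-only share of dopamine and cAMP genes, with 2 SC-only (1.67%) and 2 SS-only peaks (1.92%), now lay below, and that of GABA-A receptor genes, with 3 (5.66%) and 3 (6.0%), above. Both shares of the genes common to the MSN classes, with 1 SC-only (2.27%) and 1 SS-only peak (2.17%), now lay below. The SS-only share of rapid immediate-early genes, 1 of 10 peaks, now lay above, and the SC-only share of potassium channel genes (4.09%) just below. Shares of 4 of the short lists of other cell types crossed as well. Peaks within 1 gene are not independent, and most of these genes lie in long loci with many weak peaks.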

How the data were processed

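ATAC-seq peak lists of mouse nuclei were used, 1 list for each of 8 groups. Per the submitters' processing notes, cutadapt, HISAT, SAMtools and MACS2 were used (no versions or roles given) on mm10; whether libraries were pooled before peak calling is not given in the sources used here. The fold of each peak (a ratio over the caller's background) and its q-value were deposited by the authors, as were the class, the distance in bp and the gene. The q-value reached 0.0403 in SC and 0.0353 in SS. Columns per library numbered 0, so read depth is unknown beyond the background derived from the fold spacing, taking fold as pileup plus 1 over background plus 1. Peaks off chromosomes 1 to 19 and X were left out, 66 in SC and 74 in SS.

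Overlaps, distances and shares were computed in scipy 1.17.1, pandas 2.3.3 and numpy 2.4.6 under Python 3.11.15, with plots from matplotlib 3.10.9, and checked on simulated intervals. A gene's peaks are those the authors assign to its symbol. Motifs were searched in RefSeq promoter windows, as no genome was used here. Members, the 20 gene lists (284 genes) and the naming rule were chosen with earlier results of these data known. The rule named, in each single-list set and once per gene, the 10 highest folds, 6 promoter peaks, 8 genes with most peaks, 6 peaks in no other list, 3 intergenic peaks and list members, plus the 6 strongest shared peaks. Alternatives varied overlap, distance, q, fold, list length, chromosome X, the promoter limit and, after seeing the data, gene-body peaks alone. Some single genes are not reported here.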

Additional observations from a re-analysis of the deposited data

How the results depend on the processing

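Of 111 alternative values for the answers above, 57 moved by less than their interval or by less than 1.5 times for counts, and 54 moved further; of 80 for gene lists, 38 and 42. Keeping promoter and gene-body peaks alone tested nothing, since no peak of another class carries a gene name, and is not counted. With a fold of at least 4 in the own list, counts were 1872 SC-only and 961 SS-only peaks, in 846 and 506 genes; 94.8% of SC peaks were found in SS and 96.9% of SS peaks in SC. For SC-only, SS-only and shared peaks, promoter shares were then 10.5%, 15.5% and 34.4%, intergenic shares 46.2%, 45.1% and 33.4%, median distances 31752, 21543 and 2459.5 bp, and presence in another list 81.4%, 88.2% and 99.4%. At a q of at most 1e-05, 88.6% of SC and 83.9% of SS peaks were found; presence was 84.3%, 86.9% and 99.4%, promoter shares were 20.7% of SS-only and 35.0% of shared peaks, and the shared median distance was 2661 bp. At equal length, 85.6% of SC and 84.7% of SS peaks were found, presence was 74.8%, 78.6% and 98.9%, and 36.0% of SS-only peaks were intergenic. With a reciprocal overlap of 50%, 74.0% and 70.4% were found and presence was 52.2%, 56.1% and 91.5%. Without D1 CC and D2 CC, presence was 18.7%, 28.9% and 75.6%. With no overlap in place of 1 kb, promoter shares were 16.6% of SC-only and 22.2% of SS-only peaks, median distances 22412.5 and 14699 bp, presence 74.8% and 76.4%, and 33.7% of SS-only peaks were intergenic. With 5 kb, promoter shares were 13.1% and 18.2%, 39.4% of SC-only peaks were intergenic, and the SS-only median distance was 18831 bp. With promoters within 2500 bp, the shares were 13.0%, 17.8% and 32.4%. In the 7 settings that give a promoter share for both single-list sets, it was lower in SC-only than in SS-only peaks. The cause of these moves was not tested. No paired analysis was possible because each group has 1 list without columns per library; for the same reason no replicate could be left out. Read depth is unknown beyond the background values given above, and its part in the single-list peaks was not tested.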
